A study of Mus musculus with 8 samples.

Results

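The Janus kinase family has 4 genes in the mouse, *Tyk2*, *Jak1*, *Jak2* and *Jak3*. They were chosen by name from the 54232 gene IDs of the count table, and each of the 4 matched a single ID. The bulk RNA-seq counts came from FACS-purified NK and CD8+ T cells of the spleen, with 3 libraries per cell type. All 6 libraries were labelled *Tyk2*-/- with the strain C57BL/6 (C57BL/6N in the study's methods) and came from mice aged 8 to 12 weeks under homeostatic conditions, that is without treatment, and each library pooled the spleens of 3 mice. The label *Tyk2*-/- is therefore shared by both cell types, and the comparison described here is NK against CD8+ T cells within this genotype. The study's methods name a targeted *Tyk2* allele kept either alone or after crossing to a CMV-cre transgene, which acts in the whole animal rather than in a single lineage, and the labels do not tell which of these lines gave a library. *WT* libraries of CD8+ T cells were left out, as 3 columns bear that name while the labels list 2 samples, so the *Tyk2* reads of the *Tyk2*-/- libraries are given without a *WT* level beside them. Libraries are numbered 1 to 3 within a cell type, the numbers pair nothing, and CD8+ T cells are called T cells from here on.

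Janus kinases are tyrosine kinases that sit on the intracellular tails of cytokine receptor chains. Binding of a cytokine brings the chains and their kinases together, the kinases phosphorylate each other and the receptor, and STAT transcription factors are recruited, phosphorylated and sent to the nucleus. TYK2 binds chains such as IFNAR1, IL12RB1 and IL10RB, JAK1 binds chains such as IFNAR2, IFNGR1, IL2RB and gp130, JAK2 binds IFNGR2 and IL12RB2, and JAK3 binds the common gamma chain. NK cells depend on the IL-15 signal, which passes through JAK1 and JAK3, and both NK and T cells respond to IL-12 and type I interferon, which use TYK2.

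The promoters of the 4 genes are shown because they are the regulatory sequence next to the transcription start of each member and can be set beside its level. The letters were taken from RefSeq windows of GRCm38.p6, which run from 250 bases before to 50 bases after the annotated start, and all 4 genes matched. Only bases upstream of the starts in both RefSeq and GENCODE are printed, 5′ to 3′ on the strand of the gene, and capitals mark the GC box GGGCGG or its reverse complement. The stretches are chr9:21131276-21131525 on the minus strand for *Tyk2*, chr4:101265283-101265473 on the minus strand for *Jak1*, chr19:29251553-29251802 on the plus strand for *Jak2* and chr8:71676133-71676295 on the plus strand for *Jak3*. They are reference sequence and not that of the targeted allele.
*Tyk2* promoter: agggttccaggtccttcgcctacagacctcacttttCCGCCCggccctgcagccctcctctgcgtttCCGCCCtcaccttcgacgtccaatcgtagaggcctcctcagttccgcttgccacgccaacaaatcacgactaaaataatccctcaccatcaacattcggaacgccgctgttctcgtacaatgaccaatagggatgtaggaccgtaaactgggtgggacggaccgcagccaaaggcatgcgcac
*Jak1* promoter: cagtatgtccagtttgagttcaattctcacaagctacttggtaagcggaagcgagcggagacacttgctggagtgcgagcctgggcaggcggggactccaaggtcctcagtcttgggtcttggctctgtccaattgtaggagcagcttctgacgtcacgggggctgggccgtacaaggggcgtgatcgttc
*Jak2* promoter: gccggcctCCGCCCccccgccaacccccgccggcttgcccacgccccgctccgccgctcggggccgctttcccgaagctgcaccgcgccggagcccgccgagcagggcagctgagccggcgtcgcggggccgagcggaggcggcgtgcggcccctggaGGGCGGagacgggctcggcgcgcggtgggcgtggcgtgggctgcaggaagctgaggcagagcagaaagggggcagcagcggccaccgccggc
*Jak3* promoter: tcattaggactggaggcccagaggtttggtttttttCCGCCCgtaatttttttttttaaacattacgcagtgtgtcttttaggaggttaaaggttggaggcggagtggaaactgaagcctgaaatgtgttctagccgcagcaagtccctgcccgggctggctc

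Over the whole 300-base windows, the GC box was found at 2 places for *Tyk2*, 1 for *Jak1*, 3 for *Jak2* and 1 for *Jak3*, and 35.7% of the 32851 mouse promoters of this length held at least 1. The *Jak1* match and the third *Jak2* match lie outside the printed bases. Neither the GAS letters TTCNNNGAA, nor the ISRE core (GAAA, 2 free bases and GAAA), nor the ETS letters CCGGAAG occurred on either strand of any of the 4 windows. These motifs were found in 8.30%, 3.44% and 8.86% of all promoters, and the GAS and ISRE letters can overlap each other. The *Jak2* window was the richest in CpG of the 4, with 44 CpG dinucleotides and 81.0% G or C. *Jak1* had 29 CpG and 64.7%, *Tyk2* had 23 CpG and 58.0%, and *Jak3* had 9 CpG and 54.3%, against medians of 7 CpG and 52.7% over all promoters. The order of the 4 genes by CpG was not the order of their levels given next, since *Jak2*, the richest, had the lowest mean level of the 4 in NK cells.

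The total count on genes was 20957384 to 26144478 in the T cell libraries and 32848432 to 38573550 in the NK cell libraries, and at least 1 count was found for 12893 to 14042 and 17224 to 17373 genes. Normalised counts are counts scaled by TMM factors (edgeR) to the mean effective size. Of the 8 T cell markers, all 8 exceeded 3 counts in every T cell library, and their summed normalised count was 310191 to 327186 there and 9857 to 16004 in NK cells, where *Cd8b1* was at 0. The 8 NK cell markers summed to 1519597 to 1905097 in NK cells and to 4791 to 7824 in T cells, where *Ncr1* was at 0. T cell library 1 stood apart in B cell markers. The summed normalised count of 6 such genes was 940.6 to 9843 in T cells, highest in library 1, and 1.80 to 1521 in NK cells. This library also had the lowest *Tyk2* and *Jak2* and the highest *Jak1* and *Jak3* values of its group, and the part of the B cell RNA in that was not tested. Values without it are given below. The 7 macrophage markers summed to 249.9 to 1081 in NK cells and to 1.22 to 142.2 in T cells, with *Adgre1* and *C1qc* at 0 in all 6 libraries. *C1qb* had 1, 655 and 0 raw counts in NK cell libraries 1 to 3, and *Cd68* had 883, 633 and 235.

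*Tyk2* reads were present in every library labelled *Tyk2*-/-, and the NK cell libraries lay above the T cell libraries without passing the test across all genes. The *Tyk2* gene (ENSMUSG00000032175) is at chr9:21104068-21131243 of GRCm38, minus strand, with 24 merged exons of 5562 bases in all. Its raw count was 105, 919 and 554 in T cell libraries 1 to 3 and 3864, 4245 and 3207 in NK cell libraries 1 to 3. The groups did not overlap, all NK cell libraries being the higher ones, and T cell library 1 was the lowest of the 6. The normalised count was 3400 ± 459 in NK cells and 597 ± 502 in T cells (SD, n = 3), a 5.69-fold ratio of means. On the log2 scale the fold change (NK over T cells) was 2.51 ± 0.75 (SE), which did not pass the threshold of 0.05 in the quasi-likelihood test of edgeR, adjusted over all genes by Benjamini-Hochberg (adjusted p = 0.075). Leaving out a T cell library could change the call. Without T cell library 1 the log2 fold change was 2.03 and without library 2 it was 3.38, and both passed (adjusted p = 0.045 and 0.040), as did DESeq2 on all 6 libraries (2.58, adjusted p = 0.0025). *Tyk2* did not pass without T cell library 3 (2.42, edgeR adjusted p = 0.14). Nor did it pass without NK cell library 1, 2 or 3 (0.18, 0.17 and 0.16). The same held with RLE factors in place of TMM (0.072) and without the filter on low counts (0.087). The counts are summed over all exons of the gene, so they do not show which exons of the targeted allele were read, and they are no measure of TYK2 protein. A noncoding gene, 1700084C06Rik, lies antisense to *Tyk2* but shares 0 exonic bases with it, and its count was 0 in all T cell libraries and 48, 0 and 1 in NK cells.

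*Tyk2* counts were more spread among the T cell libraries than among the NK cell libraries, a difference that was not tested. In T cells the highest normalised count was 8.77 times the lowest, which placed *Tyk2* among the 24.6% of 9179 genes with a count in all 3 T cell libraries that varied at least as much (median over these genes 3.01). In NK cells the same ratio was 1.30, and 80.1% of 12234 genes varied at least as much (median 1.83). The ratios for the other kinases in T cells were 1.60 for *Jak1*, 2.06 for *Jak2* and 1.99 for *Jak3*, each below the median gene, and in NK cells they were 1.12, 1.71 and 1.16.

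**Figure D1:**
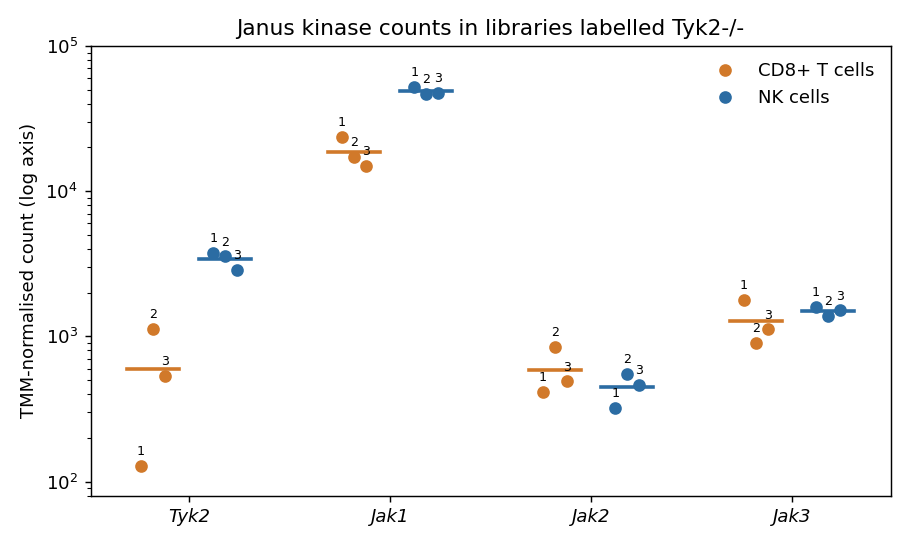
Normalised counts (TMM, log axis) of the 4 Janus kinase genes in each of 3 CD8+ T cell and 3 NK cell libraries labelled *Tyk2*-/-; points are libraries, marked with their numbers 1 to 3, and horizontal bars are group means. The NK points of *Tyk2* and *Jak1* all lie above the CD8+ T points, *Jak2* and *Jak3* overlap, and the *Tyk2* points of CD8+ T cells span from 128.5 to 1127.

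*Jak1* was the only Janus kinase gene that edgeR called between the cell types. It encodes the kinase shared by the receptors of type I and II interferon, the common gamma chain cytokines and the gp130 family. *Jak1* (ENSMUSG00000028530) lies on the minus strand at chr4:101152367-101265282, with 25 merged exons of 4906 bases. Its raw count was 19425, 14066 and 15355 in T cells and 53471, 55502 and 52801 in NK cells. The groups did not overlap, and the NK cell libraries were within a factor of 1.12 of each other. The normalised count was 48663 ± 2957 in NK cells and 18625 ± 4610 in T cells (SD, n = 3), a 2.61-fold ratio, and *Jak1* was higher in NK cells with a log2 fold change of 1.39 ± 0.20 (SE, edgeR adjusted p = 0.010). Without NK cell library 1 it was 1.33 (adjusted p = 0.056) and without NK cell library 3 it was 1.40 (adjusted p = 0.053), so that the call was lost while the value hardly moved. Without T cell library 1, which holds the B cell marker counts, it was 1.60 (adjusted p = 0.0061). *Raver2* on the opposite strand shares 4 exonic bases with *Jak1*, and its count was 1 to 809 over the 6 libraries.

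*Jak3* and *Jak2* were not called, and their libraries overlapped between the cell types. *Jak3* encodes the kinase of the common gamma chain, on which NK and T cells depend. *Jak3* (ENSMUSG00000031805) lies on the plus strand at chr8:71676296-71690575, with 26 merged exons of 4466 bases. Its raw count was 1459, 733 and 1154 in T cells and 1647, 1648 and 1679 in NK cells. The normalised count of T cell library 1 (1785) exceeded that of every NK cell library, the highest of which was 1603. The group values were 1497 ± 112 in NK cells and 1267 ± 462 in T cells (SD, n = 3), with a log2 fold change of 0.24 ± 0.39 (SE, edgeR adjusted p = 0.73). Without T cell library 1 it was 0.58 (adjusted p = 0.28). *Insl3*, a gene on the same strand, shares 404 bases or 9.05% of the *Jak3* exons, and its own count was 0 in all T cell libraries and 2, 7 and 0 in NK cells. The *Insl3* count does not show how reads in the shared bases were assigned, and their effect on the *Jak3* level was not tested.

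*Jak2* encodes the kinase of the IFN-γ receptor's second chain, of IL12RB2 and of the homodimeric cytokine receptors such as that of erythropoietin. *Jak2* (ENSMUSG00000024789) lies on the plus strand at chr19:29251828-29313080, with 25 merged exons of 5030 bases. Its raw count was 337, 693 and 506 in T cells and 331, 659 and 513 in NK cells, so that the counts of the groups were nearly the same before the deeper NK cell libraries were scaled. After scaling, the values were 445 ± 116 in NK cells and 584 ± 234 in T cells (SD, n = 3), with a log2 fold change of -0.39 ± 0.64 (SE, edgeR adjusted p = 0.73). Without T cell library 2, its highest, the log2 fold change was 0.01, and without T cell library 1 it was -0.59 (edgeR adjusted p = 0.51). With these errors, neither *Jak2* nor *Jak3* is shown to be at the same level in both cell types.

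Thus 1 of 4 Janus kinase genes was called, against 11.4% of the 14062 genes tested (6.24% higher in NK cells and 5.14% higher in T cells). The libraries of *Tyk2* and *Jak1* did not overlap between the cell types, as was the case for 41.6% of all genes tested, so the absence of overlap is common here. In bulk samples, fewer expressing cells and less RNA per cell cannot be told apart, and this holds for each difference given. Each library is a pool of spleens, so that the p-values measure the spread between pools and not between single mice.

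Levels of different genes were compared per kilobase of annotated merged exons. For *Tyk2* this length was 5562 bases, and the exon length kept by the targeted allele is not known here. The level, order, share and rank of *Tyk2* given below hold for the annotated length alone. In NK cells the order was the same in all 3 libraries, *Jak1* above *Tyk2* above *Jak3* above *Jak2*, and no neighbours in this order overlapped. The normalised count per kilobase was 9919 ± 603 for *Jak1*, 611 ± 82.5 for *Tyk2*, 335 ± 25.0 for *Jak3* and 88.5 ± 23.0 for *Jak2* (SD, n = 3). *Jak1* was thus 14.8 to 18.7 times the *Tyk2* level within each NK cell library, and *Tyk2* was 1.53 to 2.07 times the *Jak3* level, although the libraries were labelled *Tyk2*-/-.

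In T cells *Jak1* was again on top in all 3 libraries, but the order below it was not stable. The level per kilobase was 3796 ± 940 for *Jak1*, 284 ± 103 for *Jak3*, 116 ± 46.4 for *Jak2* and 107 ± 90.3 for *Tyk2* (SD, n = 3). *Jak3* was above *Jak2* in all 3 libraries, and their ranges did not overlap. *Tyk2* moved across both. It was at 23.1 per kilobase and the lowest of the 4 in library 1, at 202.6 and level with *Jak3* in library 2 (ratio 1.01), and at 96.4 and level with *Jak2* in library 3 (ratio 0.990). *Jak1* was 209.7, 17.4 and 31.4 times the *Tyk2* level in T cell libraries 1 to 3, so that library 2 alone was within the NK cell range.

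As a share of the summed level of the 4 genes per kilobase, *Jak1* made up 90.6 ± 0.563% in NK cells and 87.9 ± 2.37% in T cells. *Tyk2* made up 5.58 ± 0.620% in NK cells and 2.72 ± 2.26% in T cells, *Jak3* 3.06 ± 0.124% and 6.53 ± 1.40%, and *Jak2* 0.817 ± 0.251% and 2.82 ± 1.30% (SD, n = 3 for each). Among 14049 genes with a length, *Jak1* per kilobase was above 97.9% to 98.2% of genes in NK cells and above 94.0% to 96.3% in T cells. *Tyk2* was above 77.6% to 81.6% in NK cells, but above 39.2%, 62.2% and 50.6% in T cell libraries 1 to 3. *Jak3* was above 69.3% to 72.1% in NK cells and 62.1% to 70.6% in T cells, and *Jak2* near the middle, above 40.2% to 50.0% and 49.3% to 59.1%.

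**Figure D2:**
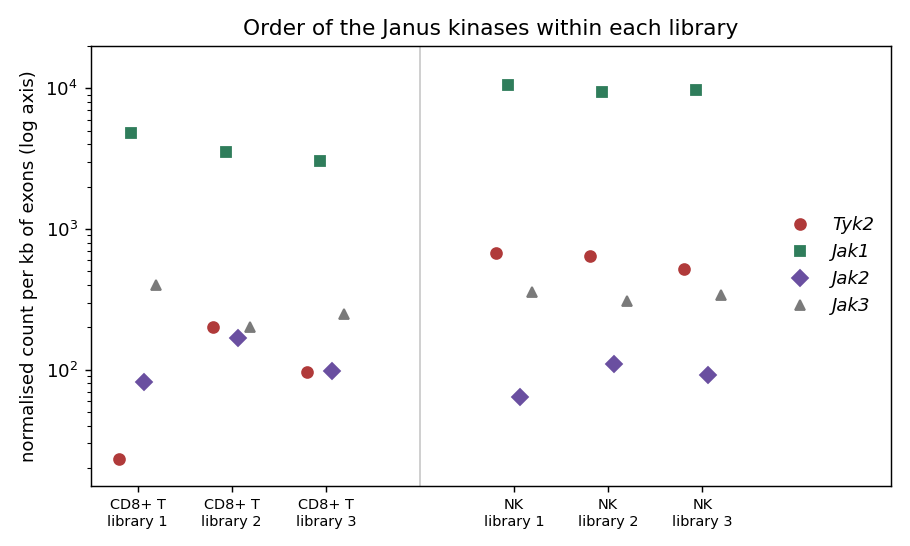
Normalised count per kilobase of merged exons (log axis) of the 4 Janus kinase genes, set side by side within each of the 6 libraries; each symbol is 1 gene in 1 library. In NK cells the order *Jak1*, *Tyk2*, *Jak3*, *Jak2* is the same in every library. In CD8+ T cells *Tyk2* moves from 23.1 to 202.6 across the levels of *Jak2* and *Jak3*. *Tyk2* is given per annotated exon length, not that of the targeted allele.

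Ratios of a pair of Janus kinases within a library need no scaling between libraries. The 6 pairs were compared by a two-sided exact permutation test of the mean log2 ratio of raw counts, which with 3 against 3 libraries cannot give a p below 0.1. The log2 ratio of *Tyk2* to *Jak2* was 3.54, 2.69 and 2.64 in NK cells and -1.68, 0.41 and 0.13 in T cells. All 3 NK cell libraries were above the T cell libraries, with a difference of means of 3.34 or 10.1-fold (exact p = 0.1, adjusted over the 6 pairs 0.15). *Tyk2* to *Jak3* was 1.18 ± 0.22 against -1.51 ± 2.09 (SD, n = 3 each, exact p = 0.1, adjusted 0.15), again without overlap. The ratio of *Tyk2* to *Jak1* overlapped between the cell types. It was -3.79, -3.71 and -4.04 in NK cells and -7.52, -3.94 and -4.79 in T cells, a difference of 1.57 (exact p = 0.2, adjusted 0.24), so that a larger NK to T cell difference of *Tyk2* than of *Jak1* was not shown. Leaving out T cell library 1 reduced this difference to 0.52, that of *Tyk2* to *Jak3* from 2.68 to 1.54 and that of *Tyk2* to *Jak2* to 2.69. Leaving out T cell library 2 raised the differences of *Tyk2* to *Jak1* and to *Jak3* to 2.31 and 3.60.

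The ratios of *Jak1* to *Jak2* and to *Jak3* were above those of T cells in all NK cell libraries, at the smallest p that the test allows. The log2 ratio of *Jak1* to *Jak3* was 5.02 ± 0.05 in NK cells and 3.91 ± 0.30 in T cells, and that of *Jak1* to *Jak2* was 6.80 ± 0.48 and 5.04 ± 0.76 (SD, n = 3 each). The differences were 1.11 and 1.77, and neither pair overlapped (exact p = 0.1 and adjusted 0.15 for each). The *Jak1* to *Jak3* ratio in NK cells had the smallest SD of all 6 ratios in either cell type. *Jak2* to *Jak3* overlapped, with a difference of -0.65 (exact p = 0.4, adjusted 0.40).

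**Figure D3:**
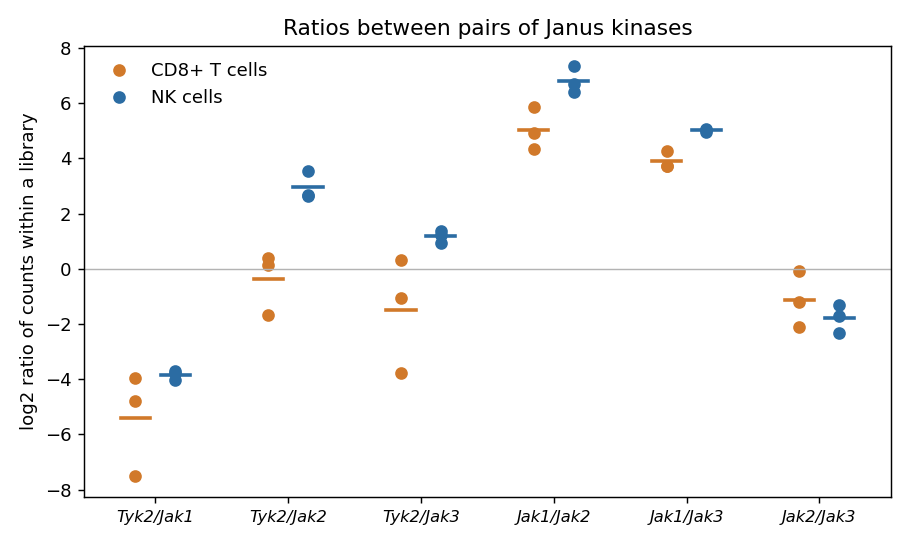
Log2 ratio of raw counts for each of the 6 pairs of Janus kinase genes within a library, for 3 CD8+ T cell and 3 NK cell libraries; points are libraries and bars are means. NK and CD8+ T cells are apart for 4 pairs and overlap for *Tyk2*/*Jak1* and *Jak2*/*Jak3*.

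The receptor chains that dock each kinase were examined as the partners of the members. Of 29 chains, 7 had no count in any library and 17 passed the filter on low counts. Among the 17, the calls were *Ifnar2*, *Il2rb* and *Il12rb2*, higher in NK cells, with *Il7r*, *Il21r* and *Il6st*, higher in T cells, so that 6 or 35.3% passed. Their median log2 fold change was 0.67, against 0.10 over all genes tested, and 11 of the 17 did not overlap. Over all genes tested, 11.4% were called and 41.6% did not overlap. *Il12rb2*, *Il20ra* and *Lepr* had 0 counts in all T cell libraries and passed the filter through NK cells alone. Chains of this kind had to differ in their means, so these counts describe the list and do not set it apart.

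None of the 3 TYK2 chains tested was called by edgeR, while 1 had an unadjusted p below 0.05 and 1 was called by DESeq2. *Ifnar1*, the chain of the type I interferon receptor that carries TYK2, had raw counts of 278, 549 and 248 in T cells and 475, 906 and 877 in NK cells, with a log2 fold change of 0.68 ± 0.67 (SE, adjusted p = 0.54) and overlapping normalised counts. *Il10rb*, shared by receptors of the IL-10 family, had a log2 fold change of 0.67 (adjusted p = 0.32). *Il12rb1*, the TYK2-binding chain of the IL-12 and IL-23 receptors, had 0, 19 and 15 counts in T cells and 1376, 564 and 595 in NK cells. Its libraries did not overlap, but it missed the threshold (adjusted p = 0.064). *Il13ra1* had no count. *Ifnar1*, *Il10rb* and *Il12rb1*, the 3 chains tested, thus gave positive log2 fold changes, as did *Tyk2*, and none of these 4 genes passed in edgeR. The median over all genes tested was also positive (0.10), so the shared sign does not set these genes apart.

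The JAK1 chains held 4 of the 6 calls, in both directions. *Ifnar2*, the other chain of the type I interferon receptor, had 1561, 1788 and 1895 counts in T cells and 6357, 8629 and 9526 in NK cells (log2 fold change 1.89 ± 0.23 (SE), edgeR adjusted p = 0.0045). *Il2rb*, the IL-2 and IL-15 receptor β chain, had 1286, 1229 and 840 counts in T cells against 71086, 70842 and 73422 in NK cells, a log2 fold change of 5.64 ± 0.32 (SE, adjusted p = 0.00035). The IL-7 receptor chain *Il7r* and the IL-21 receptor chain *Il21r* were lower in NK cells. *Il7r* had 8663, 9284 and 10145 counts in T cells and 3066, 4832 and 3008 in NK cells (-1.71 ± 0.22, adjusted p = 0.0061), and *Il21r* had 7712, 5805 and 11004 against 1888, 2356 and 1554 (-2.38 ± 0.26, adjusted p = 0.0031). *Ifngr1*, the ligand-binding IFN-γ receptor chain, had a log2 fold change of 0.65 ± 0.18 (SE, adjusted p = 0.062) without overlap, and passed with RLE factors (0.71, adjusted p = 0.048) and with DESeq2 (0.72, adjusted p = 0.0081). It did not pass without the filter (edgeR adjusted p = 0.093) or in any fit that left out 1 library (0.054 to 0.19). The calls of *Ifnar2*, *Il2rb*, *Il7r* and *Il21r* held in each fit that left out 1 library.

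Of the JAK2 chains 3 were tested. *Il12rb2*, the signalling chain of the IL-12 receptor that recruits STAT4, had 0 counts in all T cell libraries and 1491, 1000 and 2158 in NK cells, at least 412-fold higher when T cells are set to 3 counts per library (edgeR adjusted p = 0.0057). Its adjusted p was 0.051 without NK cell library 1 and 0.054 without NK cell library 3. *Ifngr2*, the JAK2 chain of the IFN-γ receptor, had 974, 837 and 36 counts in T cells and 67, 3 and 0 in NK cells, and was not called by edgeR (adjusted p = 0.19), while DESeq2 called it (-4.96, adjusted p = 0.024). *Il2rg*, the common gamma chain and the docking site of JAK3, had 43534, 32693 and 54675 counts in T cells and 26017, 40731 and 35731 in NK cells. Its normalised libraries did not overlap, with a log2 fold change of -0.68 ± 0.19 (SE, adjusted p = 0.064), and it passed without T cell library 2 (-0.77, adjusted p = 0.032) and with DESeq2 (-0.60, adjusted p = 0.039). *Il2rg* did not pass in the other fits that left out 1 library (edgeR adjusted p = 0.1 to 0.18). Nor did it pass with RLE factors (0.072) or without the filter (0.081). *Il6st*, which encodes gp130 and docks JAK1, JAK2 and TYK2, was lower in NK cells, with 4392, 1953 and 5296 counts in T cells and 31, 20 and 53 in NK cells (-7.09 ± 0.64, adjusted p = 0.0016).

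Set by receptor, the IL-15 receptor pair *Il2rb* and *Il2rg* thus had log2 fold changes of 5.64 and -0.68, and their kinases *Jak1* and *Jak3* had 1.39 and 0.24. For the type I interferon receptor, *Ifnar1* and *Ifnar2* had 0.68 and 1.89, beside 2.51 for *Tyk2* and 1.39 for *Jak1*. Of these 7 genes *Il2rb*, *Ifnar2* and *Jak1* were called.

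**Figure D4:**
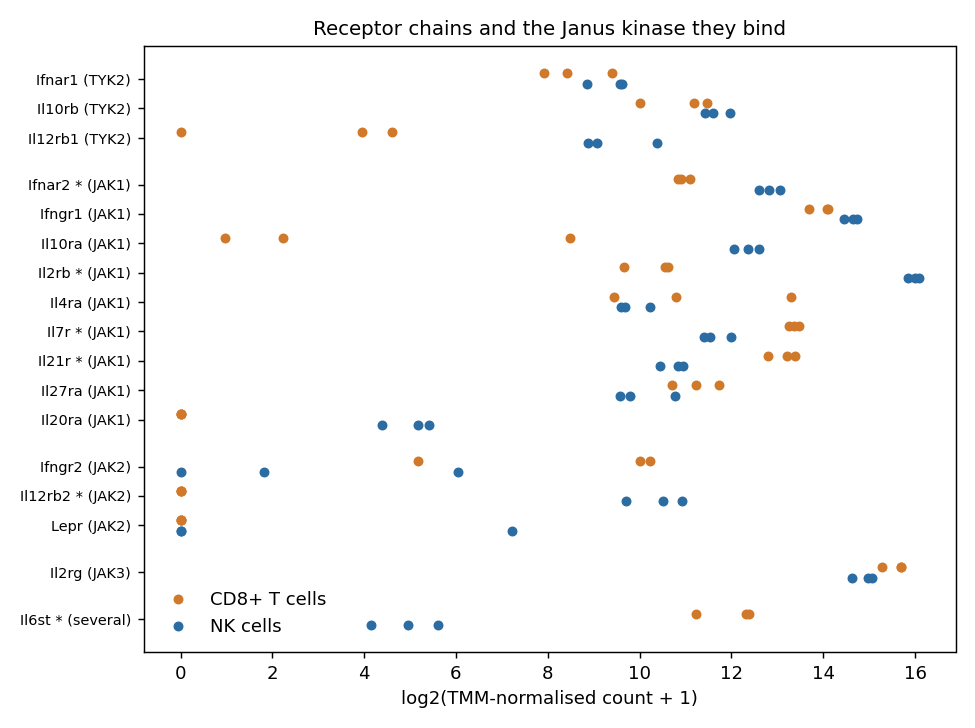
Log2 of the TMM-normalised count plus 1 (horizontal axis) in each library for the 17 receptor chains that were tested, grouped by the Janus kinase each chain docks; orange points are CD8+ T cell libraries, blue points are NK cell libraries, and an asterisk marks a chain called at an adjusted p below 0.05. The blue points of *Ifnar2*, *Il2rb* and *Il12rb2* lie to the right of the orange ones, those of *Il7r*, *Il21r* and *Il6st* lie to the left, and no TYK2 chain carries an asterisk.

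Downstream of the kinases, the study's JAK-STAT gene list without the 4 kinases holds 56 genes, of which 15 are also among the receptor chains above. The list was chosen by the study. Of 49 tested, 11 or 22.5% were called, 6 with the higher level in NK cells and 5 in T cells, the median log2 fold change was 0.10 as over all genes, and 28 did not overlap, beside 11.4% called and 41.6% not overlapping over all genes tested. *Il12rb2*, *Irf8*, *Socs2*, *Il6ra*, *Il20ra*, *Irf4* and *Irf5* were at or near 0 counts in the other cell type. These 7 genes passed the filter through the group in which they are high and had to differ. Among them *Il20ra*, *Irf4* and *Irf5* were not called. The counts therefore do not set the list apart.

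Of 9 interferon regulatory factor genes, *Irf8* was higher in NK cells, with 1, 0 and 0 counts in T cells and 21362, 20903 and 22138 in NK cells (edgeR adjusted p = 0.00017). *Irf9*, the DNA-binding subunit of ISGF3, was lower, with 3694, 1570 and 3223 counts in T cells against 1163, 627 and 827 (-1.99 ± 0.47, adjusted p = 0.043). The call of *Irf9* was lost in 5 of the 6 fits that left out 1 library, with log2 fold changes of -2.33 to -1.64 over the 6. Of 9 phosphatase and PIAS genes, 3 were called, 2 of them with the higher level in NK cells. Among them were *Ptprc*, which encodes CD45, a phosphatase that acts on Janus kinases (1.18 ± 0.15, adjusted p = 0.0053), and *Pias1*, an inhibitor of STAT activity (-1.19 ± 0.21, adjusted p = 0.018). *Pias1* did not pass without any 1 of the NK cell libraries (adjusted p = 0.11, 0.10 and 0.081). Of 8 SOCS genes, the feedback inhibitors of cytokine receptors, *Socs2* was called, with 0 counts in T cells and 534, 980 and 685 in NK cells, at least 191-fold higher against 3 counts per library (adjusted p = 0.012), but not without any 1 of the NK cell libraries (0.079, 0.088 and 0.084). None of 4 coactivators and other components was called by edgeR, with 2 at an unadjusted p below 0.05 and 2 called by DESeq2. Of the 12 receptor genes of this list that were tested, 2 were called in each direction. The lowest adjusted p among those lower in NK cells was that of *Il6ra*, which had 0 counts in NK cells and 3461, 2821 and 2679 in T cells, at least 1265-fold higher in the latter (adjusted p = 0.0012).

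To describe the pattern of each kinase, the genes nearest to it were listed by the root mean square difference of log2 normalised counts, centred on the mean of the 6 libraries, over 7972 genes with a count in every library. The genes nearest to *Tyk2* were *Ccdc50* (0.125), *Coasy* (0.245) and *Zfp787* (0.387), against a median of 2.02 over all genes compared. *Ccdc50* shared the low T cell library 1, with 42, 437 and 297 counts in T cells and 1769, 2013 and 1541 in NK cells. The genes nearest to *Jak1* were *Sp110* (0.107), *Dut* (0.110) and *Get4* (0.127), with a median of 1.21. The genes nearest to *Jak2* were *Gtf2a2* (0.139), *Fam107b* (0.139) and *Snord13* (0.152), with a median of 0.99, and those nearest to *Jak3* were *Rwdd4a* (0.103), *Tmem229b* (0.124) and *Traf1* (0.124), with a median of 0.95. With 6 libraries in 2 cell types, the likeness says only that these genes shared levels across the same libraries.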

How the data were processed

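RNA from FACS-purified splenic NK and CD8+ T cells (3 libraries each, 3 mice pooled per library) was amplified by a Smart-seq2 protocol and sequenced as 50 bp single-end reads. Per the labels and the study's methods, the authors trimmed reads with Trimmomatic 0.32, aligned them to mm10/GRCm38 with STAR 2.7.1 and deposited raw counts of uniquely aligned exonic reads per gene (summarizeOverlaps, R 3.2.3, GENCODE Basic release 93). Genes with near-identical copies can therefore be undercounted, and the use of strand is not given in the sources used here. Of 104 columns of counts, 6 were used and 98 were not, among them 3 of *WT* CD8+ T cells. Columns were tied to a group and not to a sample.

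Symbols and exon lengths came from GENCODE M21 (54079 of 54232 IDs matched, 153 did not). Counts were fitted in R 4.3.3 with edgeR 4.0.16 (TMM, robust quasi-likelihood test, two-sided, Benjamini-Hochberg over the 14062 genes whose normalised counts averaged at least 10), and called at an adjusted p below 0.05. SE is the absolute log2 fold change over the square root of F. Ratios used a pseudocount of 0.5 and exact permutation tests, with Python 3.11.15 and scipy 1.17.1. The floor was 3 counts per library and covers counting error alone, since no molecular identifiers were used here. Simulated counts served as a check of the code alone and do not measure the error rate of the fit in these data. The spread within a group, as edgeR's common biological coefficient of variation, was 1.425 in T cells and 0.795 in NK cells. The members and gene lists were chosen with earlier results of these data known. Named were the members, called receptor chains with *Ifnar1*, *Ifnar2*, *Il2rg*, *Ifngr1* and *Ifngr2*, per role and direction the other JAK-STAT gene with the lowest adjusted p, the 3 nearest genes per member with a mean of at least 100, markers and overlapping genes. *Il10rb*, *Il12rb1* and *Il13ra1* were named to complete the TYK2 chains after their values were seen. *Il20ra*, *Lepr*, *Irf4* and *Irf5* were named, also after their values were seen, because they passed the filter through NK cells alone. Alternatives were RLE factors, DESeq2 1.42.0, no filter, other gene lengths, a pseudocount of 1 and leaving out each library. The comparison with *WT* cells was not run, and results for some single genes are left out.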

Additional observations from a re-analysis of the deposited data

How the results depend on the processing

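DESeq2 called more genes than edgeR, 3770 against 1600 of all genes, 2 against 1 of the Janus kinase genes (*Tyk2* added, 2.58), 11 against 6 of the receptor chains and 21 against 11 of the other JAK-STAT genes. RLE factors (1619) and no filter (1336) kept the count of all genes within 1.5 times. Leaving out 1 library gave 476 to 1946 calls over all genes, with 482, 485 and 476 without NK cell libraries 1, 2 and 3, 0 to 2 Janus kinase genes, 5 to 8 receptor chains and 5 to 13 other JAK-STAT genes, the latter 5, 7 and 6 without NK cell libraries 1, 2 and 3. The log2 fold changes then ranged from 2.03 to 3.38 for *Tyk2*, 1.25 to 1.60 for *Jak1*, -0.59 to 0.01 for *Jak2*, with the change of sign without CD8+ T cell library 2 (0.01), and 0.07 to 0.58 for *Jak3*. Shares of the summed level moved with the gene length used. With the longest transcript, *Tyk2* in NK cells was 6.35%, *Jak1* 89.5% and *Jak3* 3.36%, and with the coding length *Jak3* was 2.91%. Leaving out 1 library gave shares in NK cells of 5.33% to 5.92% for *Tyk2*, 90.3% to 90.8% for *Jak1*, 0.705% to 0.952% for *Jak2* and 3.00% to 3.12% for *Jak3*, and in CD8+ T cells of 1.60% to 3.87%, 86.6% to 88.9%, 2.17% to 3.47% and 6.06% to 7.34%. The log2 ratios differed by 0.52 to 2.31 for *Tyk2*/*Jak1*, 2.69 to 3.73 for *Tyk2*/*Jak2*, 1.54 to 3.60 for *Tyk2*/*Jak3*, 1.42 to 2.17 for *Jak1*/*Jak2*, 1.02 to 1.29 for *Jak1*/*Jak3* and -1.15 to -0.13 for *Jak2*/*Jak3*. Why DESeq2 called more was not tested. No paired analysis was possible because NK and CD8+ T cell libraries were tied to groups alone and share no replicate number in the labels. The alternatives set for the comparison with *WT* cells (DESeq2, the replicate block and leaving out libraries) were not run either.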
